A study of Caenorhabditis elegans with 4 samples.

Results

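Chromosome IV carried 358 of the 1926 regions that the peak lists of the LSY-2 experiment hold. These regions were obtained by taking every row on chromosome IV from the 3 deposited lists and merging rows that overlapped by 1 bp or more. The list of replicate 1 gave 156 such rows, that of replicate 2 gave 191, and a combined list, deposited for the series as a whole, gave 355. The members were thus chosen by chromosome, not by strength.

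The protein was immunoprecipitated through GFP from whole hermaphrodites at the L4 larval stage, grown at 20 degrees, and the DNA was sequenced (ChIP-seq). The strain, OP240, is unc119(ed3) with the transgene wgIs240, in which lsy-2 carries TY1, EGFP and FLAG tags next to unc119. It was made by particle bombardment, so the tagged protein comes from an inserted transgene, and both ChIP libraries and both input libraries share this genotype. Samples of an untagged strain are not among those used here, so sequence enriched by the procedure itself cannot be told apart from LSY-2 binding. The labels do not say whether the 2 ChIP libraries came from separate cultures, and agreement between them may be technical.

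LSY-2 is a C2H2 zinc finger protein required in C. elegans for the left-right difference between the ASE taste neurons, where it promotes expression of the microRNA lsy-6. A factor of this kind binds DNA in gene promoters and distal elements, and ChIP-seq shows such places as local enrichment of reads. The worm has holocentric chromosomes. On the autosomes the centres are rich in conserved genes and recombine little, and the arms recombine more and hold more repeats. Chromosome IV is also known for the broad clusters of 21U-RNA (piRNA) genes that it carries.

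Each peak comes with the q value that the authors' program, PeakSeq, assigned to it. Its −log10 is called strength here, so that a larger number is a stronger call. The lists hold no reads, so depth is unknown. Strength grows with depth, and lists may not share a scale of it. All positions are 1-based in build WormBase WS180. The gene beside a region, its exons or introns and its sequence were not analysed here, and regions are named by position. Intervals in parentheses are 95% intervals, Clopper-Pearson for shares and Poisson for densities. They take regions as independent and cover counting error only, and no test was made, since regions of 1 pair of libraries are not replicates.

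LSY-2 regions on IV lay in the left arm more densely than in the right arm. The listed span of the chromosome ended at 17472404, and the arms are the outer 25% at each end, up to 4368101 on the left and from 13104303 on the right. The left arm held 112 regions, the centre 185 and the right arm 61. That is 25.6 regions per Mb in the left arm (21.1 to 30.9), 21.2 in the centre (18.2 to 24.5) and 14.0 in the right arm (10.7 to 17.9). The left and right intervals did not overlap, and that of the centre overlapped that of the left arm.

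The excess of the left arm of IV over its right arm was largest among regions that no replicate held. Regions that the combined list alone held numbered 56 in the left arm and 21 in the right arm. Regions with a peak of both replicates numbered 35 and 29, or 8.01 per Mb (5.58 to 11.1) against 6.64 (4.45 to 9.53), and these intervals overlapped. Replicate 1 alone listed 40 peaks in the left arm and 31 in the right arm, and replicate 2 listed 52 and 40. The combined list gave 111 and 61. The difference between arms thus had the same direction in every list and was largest in the combined one. The lists share many of their peaks, so their common direction is not separate evidence. The left share of arm peaks was 56.3% in replicate 1 (44.0 to 68.1) and 56.5% in replicate 2 (45.8 to 66.8), and both intervals include 50%. Of all arm regions 64.7% were in the left arm (57.1 to 71.8), against 54.7% of those of both replicates (41.7 to 67.2). Unequal arms were not particular to IV. On II these shares were 38.8% (29.9 to 48.3) and 32.5% (18.6 to 49.1), with the right arm ahead. Among all arm regions of I, III, V and X the left share ranged from 44% to 56.25%, and each interval included 50%.

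**Figure D1:**
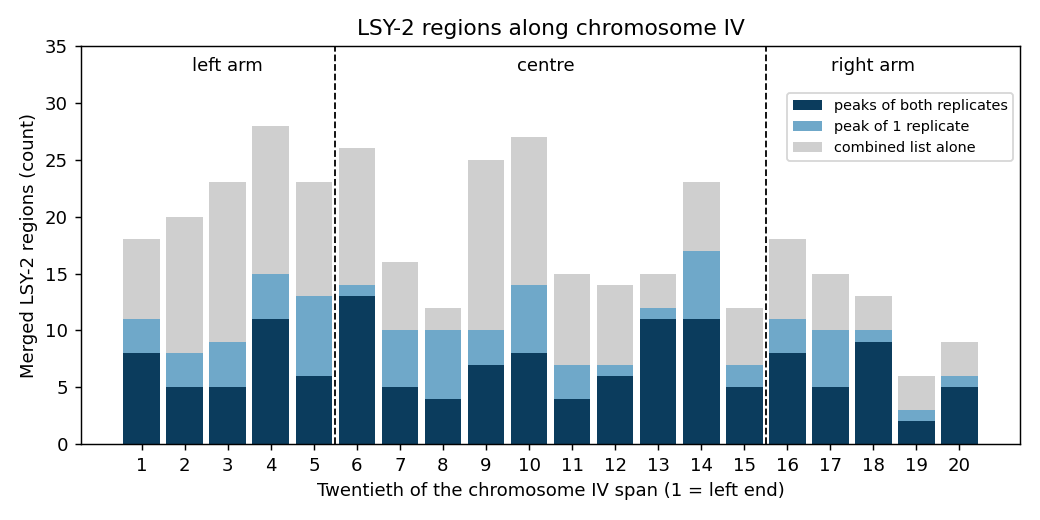
Merged LSY-2 regions in each of 20 equal parts of the chromosome IV span, from the left end (1) to the right end (20). Bar parts are regions with peaks of both replicates, of 1 replicate or of the combined list alone, and dashed lines mark the arms. The highest bar holds 28 regions in the left arm and the lowest holds 6 in the right arm.

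The order of left arm, centre and right arm depended on the list. Replicate 2 had 11.9, 11.3 and 9.16 peaks per Mb and the combined list 25.4, 20.9 and 14.0, while replicate 1 had 9.16, 9.73 and 7.10 and regions of both replicates 8.01, 8.47 and 6.64, with the centre ahead. In each of the 4 the intervals of left arm and centre overlapped, so which of them led was not resolved beyond counting error. The lead of the left arm over the right arm was common to all 4, which share peaks, and that over the centre was not. Among all merged regions, none of the other chromosomes had a left arm denser than its centre. An arm ahead of its centre was not particular to IV, however. On X the right arm had 23.4 (19.1 to 28.3) and the centre 20.6 (17.8 to 23.9), with overlapping intervals. Among regions of both replicates, both arms of X (8.17 and 8.85) were ahead of its centre (6.81), which was not so on IV. On the other 4 autosomes together the left arms held 12.7 regions per Mb (11.0 to 14.5), the centres 23.7 (22.1 to 25.5) and the right arms 13.9 (12.2 to 15.9). Chromosome IV was thus close to these pooled values in the centre and in the right arm. Singly, the centres ranged from 19.6 on V to 31.5 on III (27.5 to 36.0), whose interval lay above that of IV. The right arms ranged from 8.06 on V to 18.6 on II. The left arm of IV had the highest value of the 6 left arms. The next were III with 18.9 (14.6 to 24.1), X with 18.4 (14.6 to 22.8) and I with 16.7 (12.9 to 21.4). The intervals of these 3 overlapped that of IV. Among regions of both replicates, the left arm of IV had 8.01 per Mb and that of X 8.17 (5.72 to 11.3), while the left arms of the other autosomes had 4.19 (3.25 to 5.31). Singly, III had 6.10 (3.78 to 9.33), I had 5.04 (3.04 to 7.88) and II had 3.41 (1.81 to 5.83), which overlap the interval of IV, and V had 2.88 (1.61 to 4.75), which does not. Among regions of the combined list alone, the left arm of IV had 12.8 (9.68 to 16.6) and those of the other autosomes together 6.65 (5.46 to 8.03). Here too the intervals of III, at 9.59 (6.60 to 13.5), and I, at 9.03 (6.25 to 12.6), overlapped that of IV.

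The centre of IV held 51.7% of its regions (46.4 to 57.0), against 64.1% on the other autosomes (61.3 to 66.8), and these intervals did not overlap. Single autosomes ranged from 56.6% on II to 73.1% on V, and X had 49.7% (44.5 to 55.0). The interval for II (50.4 to 62.6) overlapped that of IV. Among regions of both replicates the central share was 53.6% on IV (44.9 to 62.1) and 65% on the other autosomes (60.4 to 69.4), and these intervals overlapped. A cut at the midpoint of each span, chosen after the arms had been compared, put 218 regions of IV to the left and 140 to the right, a left share of 60.9% (55.6 to 66.0). The same share was 40.1% on V and between 43.8% and 51.4% on I, II, III and X. Of the regions of both replicates on IV, 72 lay to the left and 66 to the right.

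**Figure D2:**
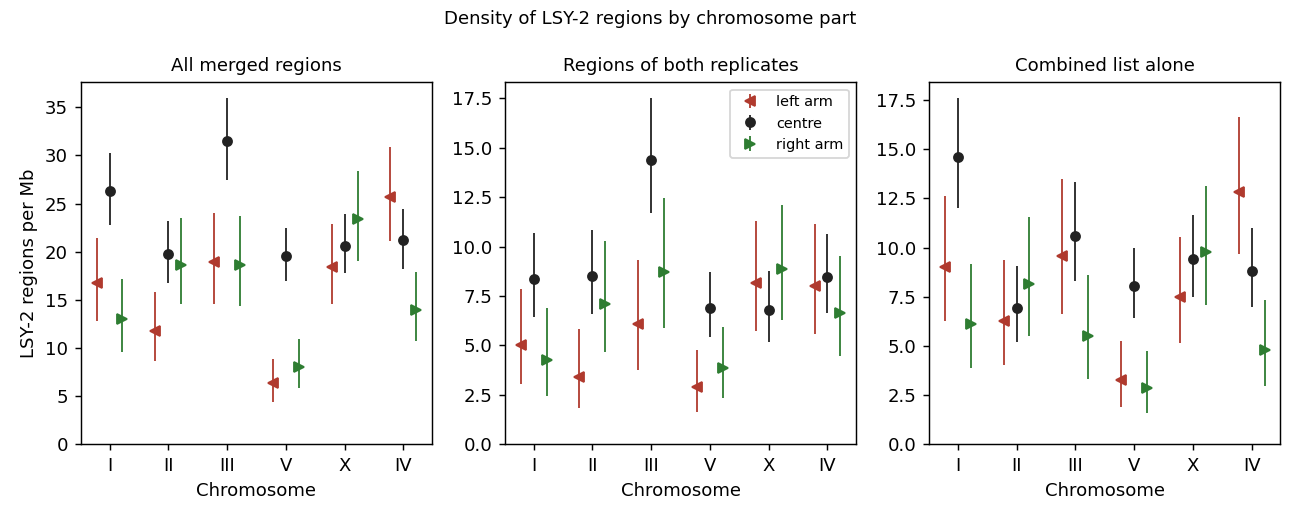
LSY-2 regions per Mb in the left arm, centre and right arm of each chromosome, for all merged regions, those of both replicates and those of the combined list alone. Points are densities and bars are Poisson 95% intervals. On IV the left arm (25.6) stands above the centre (21.2) and the right arm (14.0) among all merged regions.

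Along the chromosome, the 17 whole bins of 1 Mb held between 9 and 33 regions, with a median of 21. The bin from 4 to 5 Mb was the fullest with 33 regions, and 16 of these had peaks of both replicates. The bin from 11 to 12 Mb also held 16 regions of both replicates, of 29 in all. The bin from 12 to 13 Mb was the emptiest with 9 regions, and it nevertheless contained 2 of the 15 best-ranked regions described next. The 2 bins from 7 to 9 Mb held 29 regions each, of which 16 and 15 were in the combined list alone.

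The strongest LSY-2 regions on IV were few, and strength dropped quickly from one to the next. The 15 with the best mean rank of q over both replicates, chosen by these values, are 10.9% of the 138 regions with peaks of both. Of the 15, 3 lay in the left arm, 10 in the centre and 2 in the right arm. All 138 split into 35, 74 and 29, or 25.4%, 53.6% and 21.0%. Their median width was 1773 bp (808 to 3828), against 897 bp for the other 123. The first was 4747547 to 4751374, whose strength was 265 (replicate 1) and 289 (replicate 2). It was followed by 653180 to 655860 with 192 and 214, and the fifth of the order, 8431257 to 8433753, was already at 95.3 and 124. Replicate 2 was the stronger at all 15.

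The left arm's 3 regions in this group came directly after the strongest one. Besides 653180 to 655860, they were 3049543 to 3051820, with strengths of 134 and 146 in the replicates and 225 in the combined list, and 1093502 to 1095274, with 127, 137 and 191. The right arm's best was 14032578 to 14034724, which ranked 8 in replicate 1 with 68.6 and 9 in replicate 2 with 70.5. Its other member, 14823819 to 14825933, had 44.6 and 48.4.

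In the centre, 4 of the 15 lay within 30.8 kb of one another, just inside the left boundary. These were 4720535 to 4721342, 4724660 to 4726005, 4727819 to 4729028 and the strongest region itself. For replicate 1 the strengths of the first 3 were 35.9, 78.3 and 54.2. Replicate 2 gave them 41.5, 97.5 and 56.2, and the combined list 69.2, 128 and 86.7. A weaker region at 4745437 to 4746211, with 6.22, 5.59 and 11.2, lay 3.64 kb from the centre of the strongest one. No region of any list lay between 4751375 and 5086548, a stretch of 335 kb to its right. The first 3 thus stood together, and the strongest region lay apart from them, 21.0 kb to the right of the nearest, midpoint to midpoint.

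**Figure D3:**
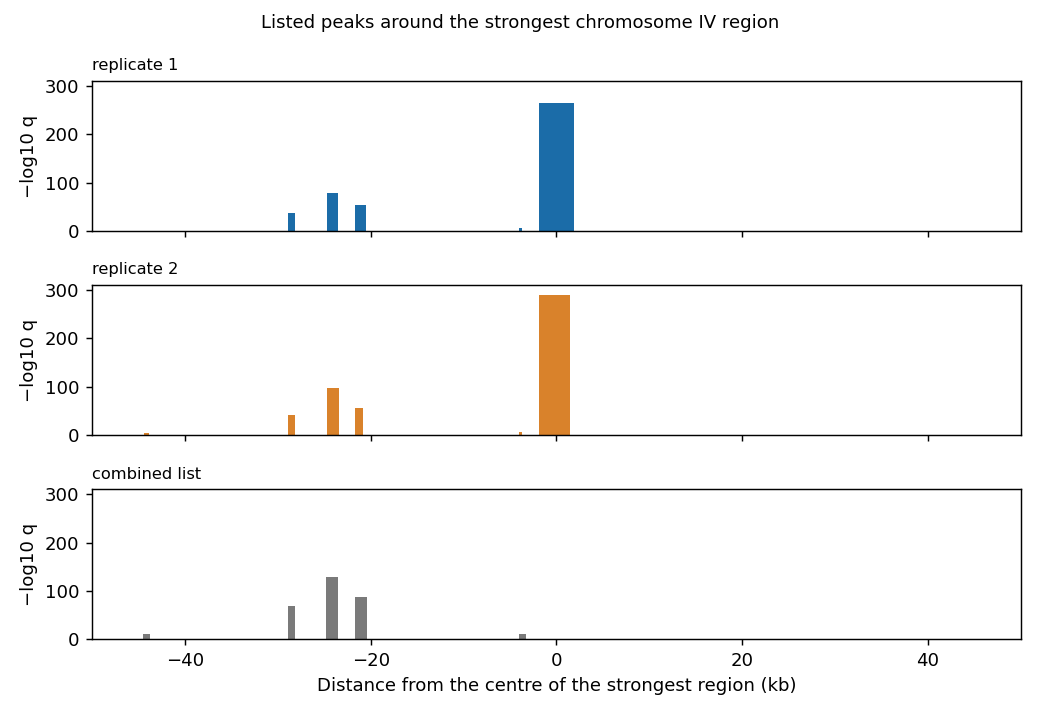
Peaks listed within 50 kb of the centre of the strongest region on IV, drawn to scale by distance (kb) and height (−log10 q), in each of the 3 lists. Both replicates list the central peak, at 265 and 289, and the combined list has no peak there. It lists the 4 neighbours that both replicates hold. It also lists another, 44.1 kb to the left, that replicate 2 holds and replicate 1 does not.

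The strongest region was the single chromosome IV region of both replicates that the combined list lacked. Such a gap was not particular to IV: over all chromosomes the combined list lacked 6 regions of both replicates, 2 on III and 1 each on I, IV, V and X. They included the strongest regions of III (221 and 274 in the replicates) and V (211 and 235), as ranked in either replicate. The one on X (145 and 187) ranked 2 on its chromosome in replicate 1 and 1 in replicate 2. On IV, all other 137 regions of both replicates were in the combined list. At 134 of these, each list had exactly 1 row. There the strength in the combined list exceeded that of both replicates at 132, and its ratio to the better replicate had a median of 1.67 (quartiles 1.44 and 1.89). Their median width was 612 bp and 684.5 bp in the replicates and 870 bp in the combined list, whose interval was the widest or tied at 107 of the 134. The combined list did hold the weaker region 3.64 kb away. The cause of the absence was not tested.

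A further pair of strong regions in the centre were neighbours, though over 10000 bp apart. Of these, 12370441 to 12372811 reached 54.6 and 79.1 in the replicates, and 12390546 to 12392300 had 47.7 and 64.1. The remaining members of the 15 were 11565655 to 11567025 with 69.2 and 89.2, 4445362 to 4446400 with 41.7 and 62.0, and 7790868 to 7792369 with 38.7 and 53.6.

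Over all peaks, the share of strong calls on IV was near that of the whole series. In replicate 1, 56 of its 156 peaks (35.9%) had a q below 1e-10, where all chromosomes had 36.4%. In replicate 2 it was 64 of 191 (33.5%) against 36.3%, and in the combined list 126 of 355 (35.5%) against 36.3%. Of all peaks, IV held 17.6% in replicate 1, 18.5% in replicate 2 and 18.6% in the combined list. Of the best 20 peaks, 5 in replicate 1, 6 in replicate 2 and 4 in the combined list were on IV. Of the best 200 it had 37, 35 and 33, or 18.5% (13.4 to 24.6), 17.5% and 16.5%. The interval for the 6 of 20 (11.9 to 54.3) includes its share of all peaks, so a difference was not detectable with 20 peaks.

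The left arm of IV held the strongest regions after the first and also many narrow, weak peaks. In replicate 2 the median strength was 6.10 in the left arm, 7.11 in the centre and 8.24 in the right arm. In the combined list it was 5.92, 6.97 and 8.42. In replicate 1 the 3 values were 7.79, 7.90 and 8.22. The share of peaks with a q below 1e-10 in the combined list was 29.7% in the left arm (21.4 to 39.1), 37.2% in the centre (30.1 to 44.6) and 41% in the right arm (28.6 to 54.3), and these intervals overlapped. Median strength on IV was thus lowest in the left arm and highest in the right arm in each list. The median region width was 505 bp in the left arm, 623 bp in the centre and 644 bp in the right arm. On the other autosomes together these widths were 591.5, 680 and 721 bp, so their order was not particular to IV.

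Merged regions on IV were narrow. Their median width of 569.5 bp was the lowest of the 6 chromosomes, where the others ranged from 628.5 bp on X to 692 bp on II. In the combined list the median was 561 bp on IV and between 617.5 and 661 bp elsewhere, and in replicate 2 it was 629 bp on IV and 645.5 to 740 bp elsewhere. In replicate 1 the value of 588.5 bp was above that of V, 572.5 bp. For regions of both replicates the median was 957.5 bp on IV and 960 bp over all chromosomes, and III (932.5 bp), V (912 bp) and X (934 bp) were narrower than IV. Width went with strength within each list, with a Spearman's rho across peaks of 0.66 in replicate 1 (n = 156), 0.62 in replicate 2 (n = 191) and 0.68 in the combined list (n = 355). These peaks share a library, and a longer peak collects more reads.

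The widest region of the chromosome lay near its right end, at 17277430 to 17281638 (4209 bp). It consisted of 1 row of replicate 1 (strength 25.9), 3 rows of replicate 2 (best 33.5) and 1 row of the combined list (60.3). The region at 10933811 to 10937384 (3574 bp) held 2 rows of replicate 2, and so did 291826 to 293868 and 11600770 to 11602426. The last of these was absent from replicate 1, and its strength was 5.19 for replicate 2 and 16.2 for the combined list. These 4 regions were the ones with over 1 row of a list on IV. The narrowest region, 4106355 to 4106406, spanned 52 bp and was in the combined list alone at 3.87.

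Both libraries were compared next, to see which chromosome IV peaks each held. Of the 156 peaks of replicate 1, 138 were overlapped by a peak of replicate 2, or 88.5% (82.4 to 93.0), and over all chromosomes the share was 87.4%. Of the 191 peaks of replicate 2, 139 were overlapped by replicate 1, or 72.8% (65.9 to 79.0), against 74.1% over all. By arm the share for replicate 1 was 87.5% on the left, 87.1% in the centre and 93.5% on the right, and for replicate 2 it was 67.3%, 74.7% and 75%. Within each replicate the intervals of the arms and the centre overlapped, and those of IV as a whole include the shares over all chromosomes.

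Agreement was lower among weaker peaks. The 39 strongest peaks of replicate 1 on IV and the 47 strongest of replicate 2, the top 25% of each, were all overlapped. In the weakest 25% it was 24 of 39 in replicate 1, or 61.5% (44.6 to 76.6). In replicate 2 it was 16 of 48, or 33.3% (20.4 to 48.4). These shares by strength were counted on IV only, and a difference from other chromosomes was not tested. Median strength in replicate 1 was 8.48 for overlapped and 4.47 for other peaks on IV. On the other chromosomes together it was 8.51 and 4.39. In replicate 2 the values were 9.58 and 4.54 on IV, and 9.84 and 4.51 elsewhere. The strongest chromosome IV region held by replicate 1 without replicate 2 was 12771301 to 12771763, with a strength of 6.68. It was followed by 3742053 to 3742958 with 5.21 and 880384 to 880852 with 5.12. For replicate 2 without replicate 1 the first 3 were 8586972 to 8587867 with 7.56, 16865309 to 16865828 with 7.15 and 6756287 to 6756953 with 6.59. All 6 were in the combined list too, with values between 5.32 and 8.77.

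**Figure D4:**
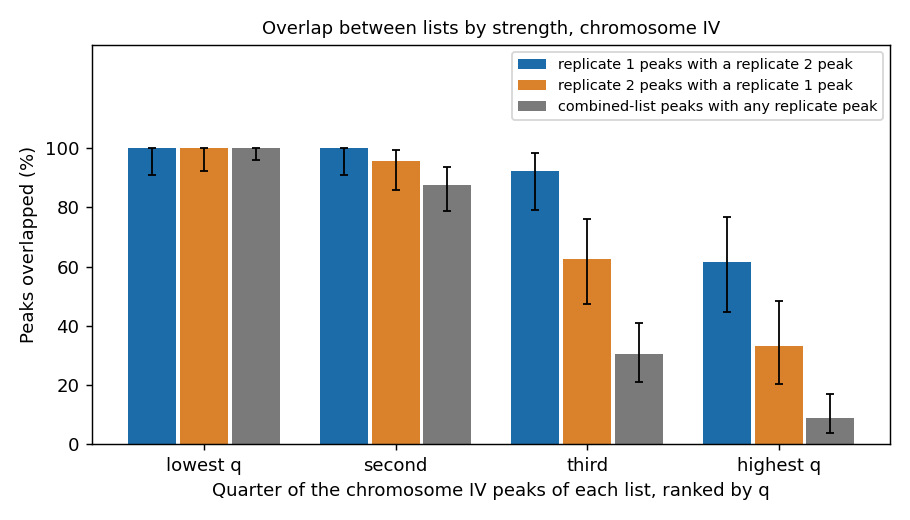
Percent of the chromosome IV peaks of each list that a peak of another list overlaps, in 4 equal parts from the lowest to the highest q, with Clopper-Pearson 95% intervals. The bars are at 100% in the first part and at 61.5%, 33.3% and 8.99% in the last.

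Over 139 overlapping pairs of peaks on IV, Spearman's rho of strength between the replicates was 0.83, within the range of the other chromosomes (0.76 on V to 0.89 on I). Replicate 2 was the stronger in 90 of them, or 64.7% (56.2 to 72.7), against 66.8% over all chromosomes. Its lead had a median of 1.27 (quartiles −0.60 and 3.47). Positions agreed closely: in the 137 pairs with 1 peak on each side, the midpoints were a median of 50.5 bp apart (quartiles 22 and 127, at most 425.5). The 2 intervals shared a median of 78.5% of their joint length.

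**Figure D5:**
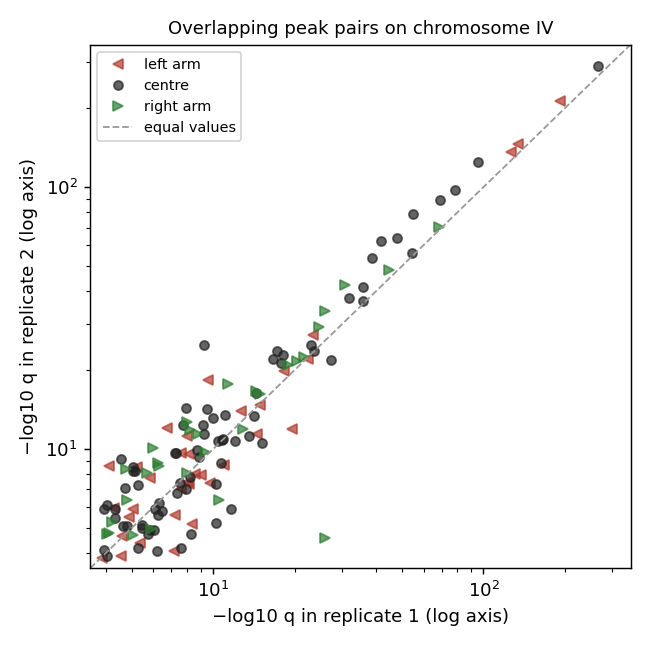
Strength (−log10 q, on log axes) of overlapping peaks on IV in replicate 1 and replicate 2, 1 point per pair, with symbols for the arms and the centre. The 15 best regions lie above the dashed line of equal values, and weaker pairs scatter on both sides of it.

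Some regions of moderate strength ranked differently in the libraries. Among the 138 regions of both replicates, 4215217 to 4215885 ranked 131 in replicate 1 (strength 4.13) and 76 in replicate 2 (8.60). The region at 8822417 to 8822992 ranked 125 and 72, with 4.56 and 9.15, and that at 291826 to 293868 ranked 92 and 50, with 6.72 and 12.1. In the opposite direction, 11523830 to 11524730 ranked 55 in replicate 1 (10.2) and 115 in replicate 2 (5.23), and 11821363 to 11822803 ranked 46 and 105 with 11.6 and 5.90. The third, 10503573 to 10504541, ranked 71 and 125 with 8.27 and 4.75. These 6 were chosen for their differences, and with 1 library on each side no error can be given for them.

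The lists combined as follows on IV. Peaks of all 3 lists made up 137 regions, and 1 more, the strongest, had both replicates only, so that 138 of 358 (38.5%) held both, where all chromosomes had 38.1%. Replicate 2 and the combined list shared 47 regions, and replicate 1 and the combined list shared 17. The combined list alone held 154 regions, or 43% (37.8 to 48.3), and 43% over all chromosomes. They were also 43.4% of its own 355 rows on IV, against 43.4% of its rows over all. A peak of a single replicate with no other support occurred once in each library: 11788552 to 11788801 in replicate 1 (4.15) and 295669 to 296297 in replicate 2 (3.94).

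The 154 regions of the combined list alone were weak and narrow. Their median strength was 4.65 (quartiles 4.03 and 5.51), against 17.7 in that list for regions of all 3 lists, and their median width was 417.5 bp against 955 bp. The strongest of them were 7391513 to 7392198 with 10.1, 293913 to 295068 with 9.44 and 2177596 to 2178063 with 8.71. Their share of the combined rows was 50.5% in the left arm (40.8 to 60.1), 42.1% in the centre (34.8 to 49.6) and 34.4% in the right arm (22.7 to 47.7), with overlapping intervals. As shares of merged regions, the 3 values on IV were 50%, 41.6% and 34.4%. On the other autosomes together they were 52.4%, 41.6% and 38.9%, so this order was not particular to IV. On X they were 40.7%, 45.6% and 41.7%. Among the strongest 25% of the combined rows on IV, 88 of 88 had a replicate peak. In the weakest 25% 8 of 89 did, or 8.99% (3.96 to 16.9). These shares too were counted on IV only. Combined rows with a replicate peak had a median strength of 11.7 on IV and 12.8 on the other chromosomes together. Those without had 4.65 and 4.83.

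Spacing was uneven. The midpoints of neighbouring regions on IV were a median of 21.2 kb apart, with quartiles of 4.39 and 61.1 kb. Of the 358 regions, 226 had a neighbour within 10000 bp, or 63.1% (57.9 to 68.1), where the share was 58.4% over all chromosomes and 66.5% on III. They formed 89 groups, 55 of 2 regions, 24 of 3 and 10 of more. With peaks of both replicates required, the median distance was 75.9 kb and 40 of 138 regions, 29% (21.6 to 37.3), had such a neighbour, where the share was 32.6% over all chromosomes. Fewer regions leave fewer possible neighbours, so the shares of the 2 sets are not compared.

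The largest group had 7 regions and lay in the left arm, from 4014554 to 4035274. Of its regions, 2 had peaks of both replicates, 3 had a peak of 1 replicate and 2 were in the combined list alone. None was strong: its best strength was 7.58 and 9.61 in the replicates and 19.4 in the combined list. A right-arm group of 5 from 13386084 to 13395636 had 3 regions of both replicates, with a best of 10.5 and 11.4. Another left-arm group, of 4 regions from 3505948 to 3526661, was in the combined list alone and did not exceed 4.24. The groups of 4 at 1057815 to 1070907 and 2599632 to 2608584, also in the left arm, each had 1 region of both replicates.

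With both replicates required, the groups of 3 on IV were 4, and none was larger. In the left arm, 384961 to 386062, 390292 to 390697 and 393126 to 394221 had strengths of 23.3, 9.68 and 22.4 for replicate 1. For replicate 2 they were 27.3, 7.41 and 22.0. The group in the centre from 4720535 to 4729028 is the one beside the strongest region. The other 2 lay at 10492132 to 10504541 and at 13388706 to 13395636, and no replicate value in them exceeded 11.4.

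The longest stretches of IV without a region were both in the right arm, 447 kb from 15722719 to 16169524 and 421 kb from 15050297 to 15471142. The third, 342 kb from 11179894 to 11522324, was in the centre. The median distance was 17.4 kb within the left arm, 20.4 kb in the centre and 26.0 kb in the right arm. At the ends, the first region of the chromosome was 125947 to 126801, in all 3 lists (5.20, 8.54 and 15.2). The last, 17471862 to 17472404, was in the combined list alone at 4.63.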

How the data were processed

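Peaks were called against WormBase WS180 with PeakSeq, per the file headers and the source column. Not given in the sources used here are the aligner, versions, filters and threshold, and how the combined list came about. Each row of the deposited lists holds an interval and a q value (p-value adjusted by the authors' caller), which the attribute column repeats in all 884, 1033 and 1910 rows. The q values were turned into −log10 q here. Libraries of input chromatin were not analysed here. No count of reads was used.

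Rows overlapping by 1 bp were merged with Python 3.11.15, NumPy 2.4.6 and SciPy 1.17.1, and figures were drawn with matplotlib 3.10.9. Merging and arm counts were checked on simulated lists. The end of the last listed peak stands for the chromosome's length. A region's strength in a list is its lowest q, and its place is its midpoint. Named regions are the 15 best mean ranks, the regions missing from the combined list, and the extremes of support, width, rank difference, grouping and spacing. The chromosome, the rules and the alternatives were chosen with earlier results of these data known. Alternatives were stricter overlap, the better-ranked 50% of each list, single lists left out, joined regions and other boundaries.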

Additional observations from a re-analysis of the deposited data

How the results depend on the processing

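Of 55 alternatives to 11 results on chromosome IV, 39 stayed within the counting error of the value reported (for counts, within a factor of 1.5; for rho, within 0.05). The number of regions moved to 170 in the better-ranked 50% of each list and to 208 with the replicate lists only. The number with peaks of both replicates moved to 76 in the better-ranked 50%, which holds fewer peaks by construction. There the share of replicate 2 peaks overlapped moved to 80%. The central share was 34.6% for a centre of the middle 33.3% of the span, which is a shorter stretch, and it ranged from 50% to 53.6% under the other settings. The left share of arm regions was 56.8% in the better-ranked 50% of each list, 54.7% in regions of both replicates and 58.2% with the replicate lists only, and their intervals include 50%. The cause was not tested. Under the remaining settings it ranged from 62.4% to 66.5%, and it was above 50% in all 10 settings, the reported one included. Without replicate 1 or 2 it was 64.7% and 64.5%, which says little, since the combined list holds 355 of the rows behind the 358 regions.

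For the other results 9 of 22 alternatives moved. The share of regions within 10000 bp of another was 45.1% after joining regions under 2000 bp apart, 44.2% with the replicate lists only, and 47.5% and 75.4% with limits of 5000 and 20000 bp. No paired analysis was possible because the lists hold no groups of samples to compare. A region missing from a list may lie just under its threshold, since depth is unknown.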
